A study of Mus musculus with 8 samples.

Results

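Neurog2, Neurod4, Olig2, Hes6, Insm1, Dlx1, Dlx2, Sox4, and Sox11 are 9 transcription factors that mark the passage of a retinal progenitor cell into a differentiating neuron. They were chosen by gene symbol and make up 9 of the 21807 genes that the expression tables held after rows of the same symbol had been summed. Each was found on 1 row of every table. Their expression was followed by RNA sequencing (RNAseq) in 8 libraries of retinas from slc:ICR mice. Whole retinas were taken at E15 and E18, that is, embryonic days 15 and 18. Retinas of pups at P2, P5, and P8 (postnatal days 2, 5, and 8) were pooled, dissociated, and sorted with an antibody against Cd73, a surface protein of rod precursors and rods. This gave a Cd73 positive fraction (Cd73PC) and a Cd73 negative fraction (Cd73NC), and the latter holds all cells that lacked the antigen, a mixture of types. No genetic change or drug treatment was recorded for any group.

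Each condition was sequenced as 1 library, so no replicate error exists for a difference at 1 stage and such differences were not tested. The effect of the fraction over all 3 stages was tested with stage as a block, and this test was chosen after seeing the data. Values are FPKM, fragments per kilobase of transcript and scaled to the number of mapped fragments, with the lower and upper bounds that Cufflinks gives for the estimate within a library. These bounds do not cover the difference between animals or between sorts. A member was called higher or lower when FPKM + 1 differed by at least 1.5-fold, and each count is set beside the share of the 13411 genes with an FPKM of at least 1 in at least 1 library that passed the same threshold. Of the 72 member values, 27 lie above their own upper bound and the other values lie within their bounds. The relative sequencing depth, read from the steps between the lowest values, ranged from 0.966 to 1.62 times that of E18.

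The sorted fractions were first checked against their labels. Nt5e, which encodes Cd73, stood at 2.43, 31.4, and 9.38 FPKM in the Cd73NC libraries of P2, P5, and P8, where Cd73PC had 97.3, 131, and 124 FPKM. The summed FPKM of 4 rod markers (Nrl, Nr2e3, Sag, and Pde6b) in Cd73NC was 1.65%, 12.7%, and 6.83% of the sum in the Cd73PC library of that age, and each of the 4 was higher in the positive fraction. The P5 Cd73NC library therefore had the highest rod marker sum of the 3 negative fractions, absolute and relative to its Cd73PC. The paper states that sorting was done quickly, at a cost to purity. Markers of other cells were also present in Cd73PC. The sum of 5 progenitor and cell cycle genes was 25.2%, 30.9%, and 21.9% of that in Cd73NC at P2, P5, and P8. For 5 Müller glia markers it was 59.9%, 29.5%, and 28.7%. At P2, 3 of these 5 were lower in Cd73PC, and Apoe was at 162 FPKM in Cd73PC and 110 in Cd73NC. The part of such cells in the member levels of Cd73PC was not tested. In bulk RNA of this kind, fewer cells that express a gene and less RNA of that gene per cell cannot be told apart.

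As background, proneural factors of the basic helix-loop-helix (bHLH) family, such as Neurog2, bind E-boxes together with E proteins and commit a progenitor to a neuronal fate. They turn on Notch ligands such as Dll1 in the committing cell, while Notch signaling keeps neighboring cells as progenitors through the Hes and Hey repressors. Neurod4 (also called Math3) acts later and takes part in the formation of bipolar and amacrine cells, and Olig2 is found in a subset of neurogenic retinal progenitors. Hes6 is a relative of the Hes repressors that opposes Hes1 and favors neurogenesis. Insm1 is a zinc finger repressor of newly born neurons and endocrine cells. The homeobox factors Dlx1 and Dlx2 act in ganglion cells and inhibitory neurons, and the SoxC factors Sox4 and Sox11 activate neuronal genes such as Tubb3 in young neurons.

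In the build NCBI37/mm9, Neurog2 lies at chr3:127336063-127338549, Neurod4 at chr10:129705208-129717296, and Olig2 at chr16:91225795-91228922. Hes6 lies at chr1:93308060-93309799, Sox4 at chr13:29042599-29045551, and Sox11 at chr12:28019133-28027583. Insm1, at chr2:146047733-146050754, is a gene of 1 exon. Dlx1, at chr2:71367502-71372037, and Dlx2, at chr2:71381465-71384811, are neighbors on opposite strands with 9427 bases between them. The row of Dlx1 overlaps that of the antisense gene Dlx1as. The libraries did not mark the strand, so reads from the overlap cannot be assigned to either gene.

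Promoter sequences were taken from RefSeq (build GRCm38.p6), which gave 10 start sites for 8 of the 9 members and had no entry for Insm1. The 250 bases before the start of Neurog2, Sox11, Sox4, and Hes6 are printed 5′ to 3′ on the strand of the gene. Neurog2 and Sox11 are shown because their expression ran nearly in parallel, Sox4 because it departed from its relative Sox11, and Hes6 because it was the most abundant member in whole retina. Capitals mark the E-box CANNTG, the motif bound by bHLH factors, which reads alike on both strands.
Neurog2, chr3:127632886-127633135, + strand: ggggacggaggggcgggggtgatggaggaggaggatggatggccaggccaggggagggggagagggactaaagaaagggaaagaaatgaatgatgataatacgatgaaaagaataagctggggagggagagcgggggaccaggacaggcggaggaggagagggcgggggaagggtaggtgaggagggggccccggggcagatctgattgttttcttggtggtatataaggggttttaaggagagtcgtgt
Sox11, chr12:27342719-27342968, - strand: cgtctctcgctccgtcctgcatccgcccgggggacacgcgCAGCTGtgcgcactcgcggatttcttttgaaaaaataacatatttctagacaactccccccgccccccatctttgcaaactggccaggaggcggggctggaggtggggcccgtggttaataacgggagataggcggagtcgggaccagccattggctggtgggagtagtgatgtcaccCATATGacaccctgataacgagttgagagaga
Sox4, chr13:28953700-28953949, - strand: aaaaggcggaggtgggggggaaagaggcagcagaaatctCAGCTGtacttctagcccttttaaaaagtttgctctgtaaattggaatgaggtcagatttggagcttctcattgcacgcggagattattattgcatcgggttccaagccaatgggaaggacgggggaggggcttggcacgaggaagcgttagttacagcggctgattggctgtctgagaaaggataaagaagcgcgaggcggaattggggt
Hes6, chr1:91413223-91413472, - strand: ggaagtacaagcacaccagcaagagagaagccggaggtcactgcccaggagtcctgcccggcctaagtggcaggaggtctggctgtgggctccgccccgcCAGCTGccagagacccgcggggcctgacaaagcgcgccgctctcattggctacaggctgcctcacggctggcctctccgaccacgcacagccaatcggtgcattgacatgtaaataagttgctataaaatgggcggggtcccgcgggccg
The Neurog2 window holds no CANNTG, Sox11 holds 2 (CAGCTG and CATATG), and Sox4 and the printed Hes6 window hold 1 each (CAGCTG). The window of a second Hes6 start, at chr1:91414039-91414288, holds 3. Of the 10 member windows 5 hold at least 1 CANNTG, and of 32536 windows of all genes 66.2% do. The form CAGCTG occurs in 13.1% of all windows. A match is a description of these letters and not a binding site.

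**Figure D1:**
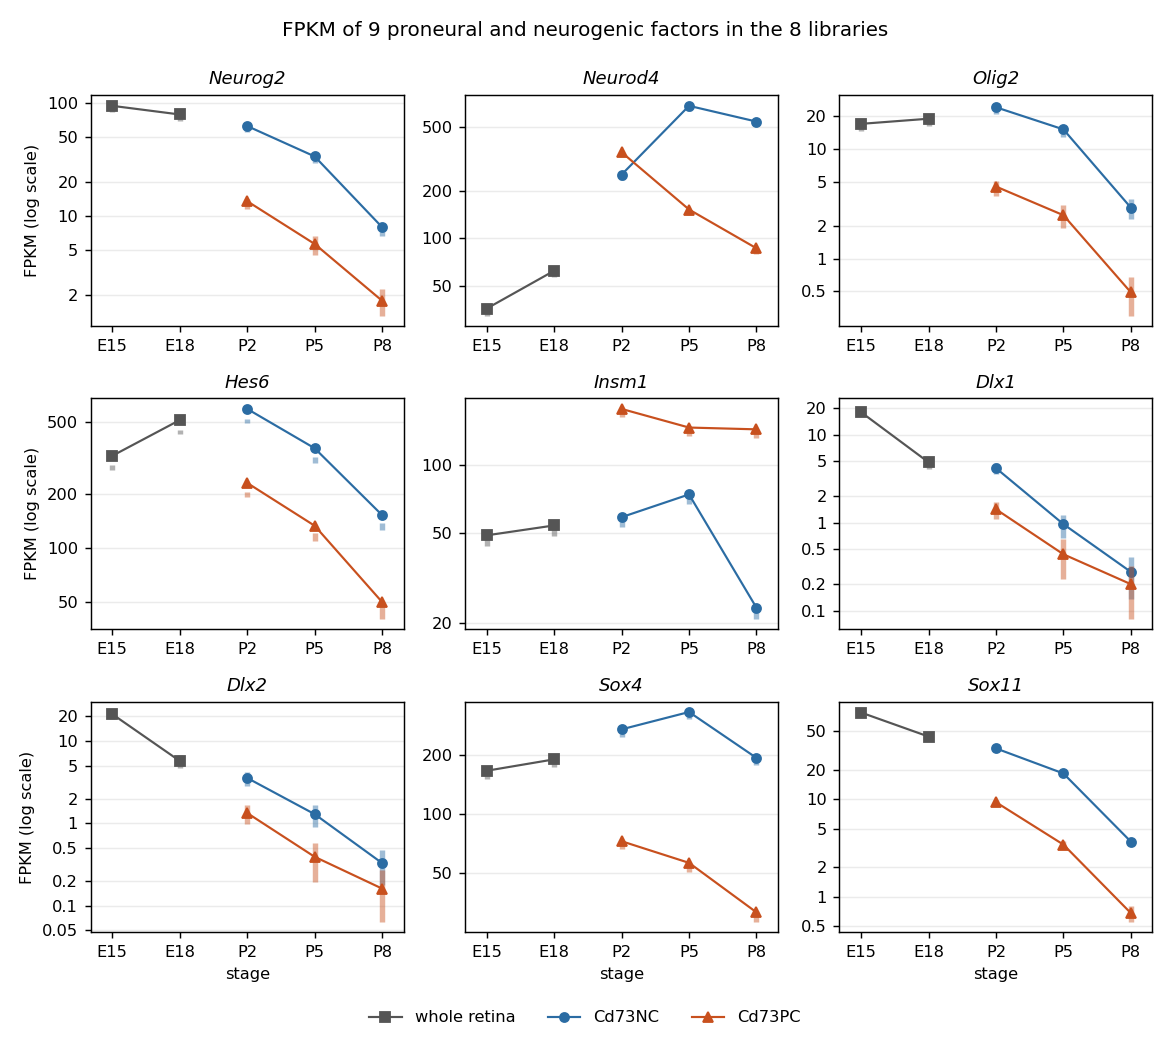
FPKM of each of the 9 members (log axis) at E15 and E18 in whole retina (grey squares) and at P2, P5, and P8 in Cd73NC (blue circles) and Cd73PC (orange triangles), 1 library per point. Pale bars span the Cufflinks bounds within a library. They lie below the value itself for all Hes6 points and for some points of Neurog2, Neurod4, Insm1, and Sox4. Insm1 was higher in Cd73PC at all 3 stages, and Neurod4 crossed over between P2 and P5.

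The first comparison asked which members separate Cd73PC, the fraction sorted for rod precursors and rods, from Cd73NC. Cd73PC held more Insm1 and less Neurog2, Olig2, Hes6, Sox4, and Sox11 than Cd73NC at P2, P5, and P8. At P2, 1 member was higher in Cd73PC and 7 were lower, where 13.7% of all genes tested were higher and 23.3% lower. At P5, 1 member was higher and 7 were lower, against 11.3% and 25.1% of all genes. At P8, 1 member was higher and 6 were lower, against 12.1% and 29.6% of all genes. Over the 6 sorted libraries, limma was fitted to log2(FPKM + 1) of all genes tested with fraction and stage as terms, which leaves 2 residual degrees of freedom and counts a difference that varies with stage as error. With Benjamini-Hochberg adjustment, 1 member was higher in Cd73PC (adjusted p under 0.05) and 5 were lower, against 8.48% and 18.6% of all genes. The mean log2 difference of Insm1 was 1.71 ± 0.31 (SE; limma, adjusted p = 0.018). That of Sox4 was -2.32 ± 0.18 (limma, adjusted p = 0.0040). Neurog2, Olig2, Hes6, and Sox11 were the other members lower, with limma adjusted p from 0.0048 to 0.0070 and the same direction at 3 of 3 stages. Not past this threshold were Neurod4 (-1.45 ± 0.62; limma, adjusted p = 0.14), Dlx1 (-0.54 ± 0.24; limma, adjusted p = 0.15), and Dlx2 (-0.63 ± 0.21; limma, adjusted p = 0.084). Leaving out any 1 stage leaves 1 residual degree of freedom. Without the P5 libraries no member was called, and the adjusted p (limma) of these 6 members lay between 0.060 and 0.090. Without the P2 or without the P8 libraries these 6 members were still called, Insm1 without P2 only just (limma, adjusted p = 0.0499). Without the P2 libraries Neurod4 was lower too (-2.40; limma, adjusted p = 0.012). The median log2 ratio of the 9 members was -1.36, -2.12, and -1.47 at P2, P5, and P8, where that of all genes tested was -0.13, -0.17, and -0.22. After quantile normalization the share of higher genes among all those past the threshold was 48.1% at P5 and 48.2% at P8, and with FPKM as deposited it was 31.1% and 29.0%.

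**Figure D2:**
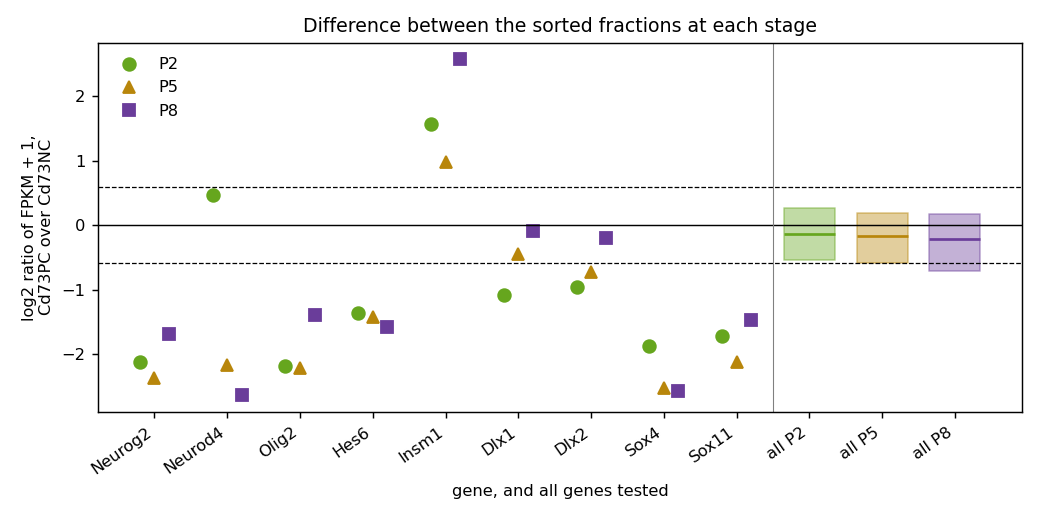
Log2 ratio of FPKM + 1, Cd73PC over Cd73NC, for each member at P2 (circles), P5 (triangles), and P8 (squares), with the interquartile range (boxes) and median (lines) of the 13411 genes tested at the right. Dashed lines mark 1.5-fold. Insm1 lies above the upper line at all 3 stages, and Neurog2, Olig2, Hes6, Sox4, and Sox11 lie below the lower line.

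Among the proneural bHLH factors, Neurog2 was highest before birth. Its FPKM was 94.6 at E15 and 79.3 at E18, then 62.7, 33.8, and 8.00 in Cd73NC and 13.6, 5.68, and 1.79 in Cd73PC at P2, P5, and P8. Thus the 8 levels span 52.9-fold, and the bounds of no neighbors in their order overlapped. The excess of Neurog2 in Cd73NC was 4.62-fold, 5.94-fold, and 4.47-fold at the 3 ages. The fall over time occurred in both fractions. Cd73PC at P8 retained 31.5% of its P5 level and Cd73NC 23.7%, and both steps passed the threshold.

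Olig2 stayed within the 1.5-fold threshold from E15 to E18 in whole retina and from E18 to P2 Cd73NC. In the latter step stage and sorting changed together. Its FPKM was 17.1 at E15, 19.1 at E18, and 24.3, 15.2, and 2.93 in Cd73NC. In Cd73PC it was 4.57, 2.49, and 0.490. The Cd73NC level exceeded that of Cd73PC 5.32-fold, 6.11-fold, and 5.97-fold in the same order, with bounds that did not overlap at any stage. At P8 the bounds allow a range from 3.39-fold to 11.7-fold, since few fragments came from Cd73PC. The related gene Olig1 stayed at or below 1.38 FPKM in every library.

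Neurod4 was higher in Cd73PC at P2 and higher in Cd73NC at the later ages. Its FPKM was 36.1 at E15 and 62.5 at E18. At P2 it stood at 252 in Cd73NC and 349 in Cd73PC, a 1.38-fold difference that did not reach the threshold although the bounds did not overlap. At P5 it stood at 684 in Cd73NC and 152 in Cd73PC, and at P8 at 544 and 86.5. Cd73NC therefore held 4.50-fold more than Cd73PC at P5 and 6.29-fold more at P8. From P2 to P5 the level was 2.72-fold higher in Cd73NC, while in Cd73PC it was 43.6% of the earlier level. By P5 Neurod4 ranked 40th among the genes tested in Cd73NC. Bipolar cell markers changed at the same time. The summed FPKM of Vsx1, Grm6, Trpm1, and Cabp5 in Cd73NC was 1.496, 25.5, and 571 at P2, P5, and P8, and in Cd73PC it was 8.28, 7.03, and 62.7. Of these 4 markers 2 were higher in Cd73PC at P2, and 3 and 4 were lower at the later ages. Grm6 was at 0 in Cd73NC at P2. Of the amacrine cell markers, 3 (Gad1, Slc6a9, and Pax6) were in the tables, with a summed FPKM of 202, 106, and 38.3 in Cd73NC and 93.5, 85.4, and 55.2 in Cd73PC. Slc6a9 was higher in Cd73PC at all 3 stages and Pax6 lower. The part of bipolar and amacrine cells in the Neurod4 levels was not tested.

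Hes6 was the most abundant member in whole retina. Its FPKM was 326 at E15, 515 at E18, and 594, 359, and 153 in Cd73NC at P2, P5, and P8. In Cd73PC it was 230, 133, and 50.3. Cd73NC exceeded Cd73PC by similar factors of 2.58, 2.69, and 3.04 at P2, P5, and P8. Hes6 therefore stayed above 50 FPKM even in P8 Cd73PC, where Neurog2, Olig2, and Sox11 were below 2 FPKM. All Hes6 values lie above their upper bound by a near constant factor, and the bounds were used only as ratios.

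Insm1 was the only member past the threshold as higher in Cd73PC at any of the 3 stages. It stood at 49.0 FPKM at E15 and 54.2 at E18. In Cd73PC it was 177, 147, and 144 at P2, P5, and P8, and in Cd73NC 58.9, 74.3, and 23.4. All 3 Cd73PC levels lie above the other 5 libraries, and those at P5 and P8 have overlapping bounds. The excess in Cd73PC was 3.01-fold at P2, 1.98-fold at P5, and 6.15-fold by P8. The P5 Cd73NC library, where Insm1 differed least, also had the highest rod marker sum of the negative fractions, and the part of rods in this value was not tested. Within Cd73NC the level at P8 was 31.5% of that at P5, whereas in Cd73PC it was 98.2%.

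Dlx1 and Dlx2 were near the limit of detection after P2. Dlx1 was at 17.9 FPKM at E15 and 4.85 at E18, then at 4.16, 0.961, and 0.276 in Cd73NC and at 1.42, 0.437, and 0.200 in Cd73PC. Dlx2 was at 21.3 and 5.74 FPKM before birth, at 3.57, 1.29, and 0.329 in Cd73NC, and at 1.34, 0.392, and 0.161 in Cd73PC. For both genes E15 was the highest and P8 Cd73PC the lowest of the 8 libraries. At P2 Cd73NC held 2.93-fold more Dlx1 and 2.67-fold more Dlx2. At P8 the bounds of the fractions overlapped for both genes, and a difference was not detectable at this depth. With a pseudocount of 0.1 the log2 ratio was -0.98 for Dlx1 at P5 and -0.72 for Dlx2 at P8, past the threshold, and after quantile normalization it was 0.11 for Dlx1 at P8, against -0.09 with FPKM as deposited. The antisense gene Dlx1as did not exceed 1.98 FPKM in any library.

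The SoxC factors diverged. Sox4 was at 166 FPKM at E15, 190 at E18, and 270, 331, and 193 in Cd73NC at P2, P5, and P8. In Cd73PC it was at 72.9, 56.6, and 31.7. Sox11 was at 76.5 and 43.5 FPKM before birth, at 32.9, 18.3, and 3.67 in Cd73NC, and at 9.28, 3.42, and 0.683 in Cd73PC. Cd73NC held 3.70-, 5.84-, and 6.10-fold more Sox4 than Cd73PC at P2, P5, and P8, and 3.54-, 5.33-, and 5.37-fold more Sox11. The difference between fractions was thus of like size for both genes, and the course over time was not. Sox4 in Cd73NC at P8 was at 193 FPKM, above the 166 FPKM of whole retina at E15, and in Cd73PC at P8 it was at 31.7. Sox11 was at 3.67 FPKM in P8 Cd73NC against 76.5 at E15. Between E15 and P8 stage and sorting differ together.

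**Figure D3:**
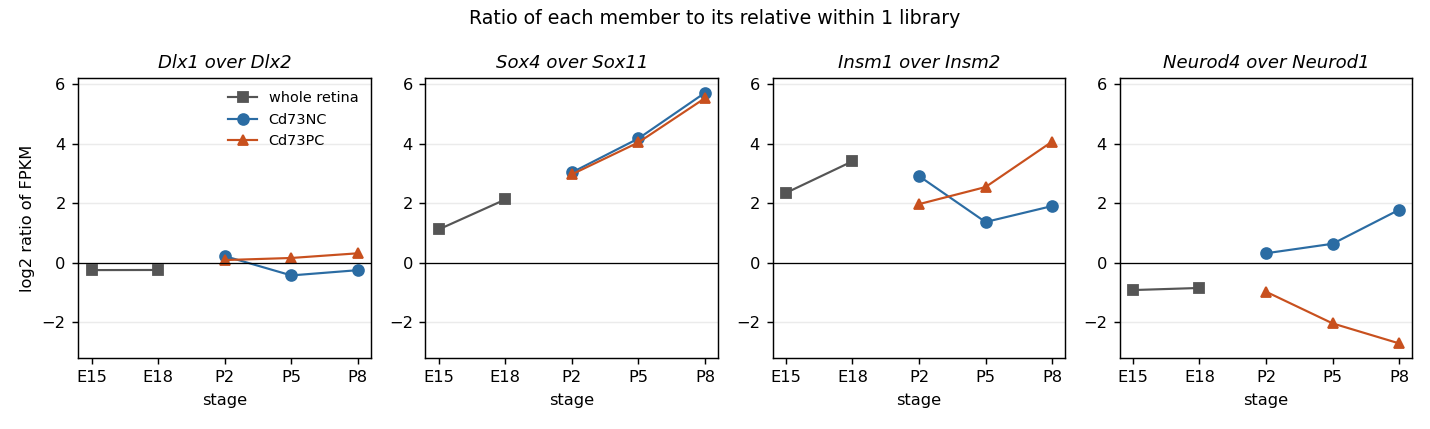
Log2 ratio of FPKM of 4 members to a related gene within each library: Dlx1 over Dlx2, Sox4 over Sox11, Insm1 over Insm2, and Neurod4 over Neurod1, by stage in whole retina (grey squares), Cd73NC (blue circles), and Cd73PC (orange triangles). Sox4 over Sox11 rises from 2.17 at E15 to 52.6 in Cd73NC and 46.4 in Cd73PC at P8, and Neurod4 over Neurod1 separates the fractions.

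Ratios within a library do not depend on its scaling. Dlx1 and Dlx2 kept a ratio of FPKM between 0.743 and 1.25 in all 8 libraries, while each of them varied 89.6-fold or more. The ratio of Sox4 to Sox11 was 2.17 at E15, 4.37 at E18, and 8.20, 18.1, and 52.6 in Cd73NC at P2, P5, and P8. In Cd73PC it was 7.85, 16.5, and 46.4, close to that of Cd73NC of the same stage. Neurod4 and its relative Neurod1, a bHLH factor of photoreceptors and amacrine cells, went apart between the fractions. Neurod1 was at 202, 440, and 158 FPKM in Cd73NC and at 687, 626, and 568 FPKM in Cd73PC. The ratio of Neurod4 to Neurod1 was 1.25, 1.55, and 3.44 in Cd73NC, and 0.508, 0.243, and 0.152 in Cd73PC. Insm2, the relative of Insm1, was at 7.81, 28.8, and 6.25 FPKM in Cd73NC and at 45.3, 25.1, and 8.57 FPKM in Cd73PC, so it was higher in Cd73PC past the threshold at P2 only.

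A second comparison followed the members from E15 to birth. From E15 to E18, Neurod4 was 1.73-fold and Hes6 1.58-fold higher, and Dlx1, Dlx2, and Sox11 were lower, at 27.0%, 26.9%, and 56.9% of their E15 level. These are 2 members higher and 3 lower, where 7.37% of all genes tested were higher and 3.31% lower. The share of higher genes among all those past the threshold was 69.0%, and 54.7% after quantile normalization. Neurog2, Olig2, Insm1, and Sox4 did not reach the threshold. Retinal ganglion cell markers changed as well, with a summed FPKM of Pou4f1, Pou4f2, Isl1, Sncg, Nefl, and Rbpms of 885 at E15 and 527 at E18. Their part in the levels of Dlx1 and Dlx2 was not tested.

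From E18 whole retina to P2, stage and sorting changed together and cannot be told apart. Compared with E18, P2 Cd73PC held more Neurod4 (5.58-fold) and Insm1 (3.27-fold) and less of the other 7 members, against 14.1% of all genes higher and 29.1% lower. In P2 Cd73NC only Neurod4 passed the threshold, 4.03-fold higher, against 5.13% of all genes higher and 12.8% lower. Dlx2, at 62.1% of its E18 level, was past the threshold only with a pseudocount of 0.1 or upper-quartile scaling. Both comparisons share the E18 library. After quantile normalization the share of higher genes among those past the threshold was 48.4% for Cd73PC and 44.2% for Cd73NC, where it was 32.7% and 28.6% with FPKM as deposited.

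The third comparison followed each fraction after P2, and successive steps share the P5 library. In Cd73PC, 7 members were lower at P5 than at P2 and none higher, against 13.9% of all genes lower and 5.35% higher. Insm1, at 82.7% of its P2 level, and Sox4, at 77.6%, did not reach the threshold. The share of higher genes among all those past the threshold was 27.8% in this step, and 47.6% after quantile normalization. From P5 to P8, 6 members were lower in Cd73PC and none higher, against 7.69% and 5.34% of all genes. Insm1, Dlx1, and Dlx2 did not reach the threshold in that step, and the bounds of all 3 overlapped.

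In Cd73NC, 6 members were lower at P5 than at P2 and 1, Neurod4, was higher, against 15.3% of all genes lower and 12.7% higher. Insm1 at 1.26-fold and Sox4 at 1.23-fold were within the threshold. From P5 to P8, 8 members were lower and none higher, against 12.6% and 13.3% of all genes. Neurod4 alone did not reach the threshold, at 79.6% of its P5 level. The largest reductions were those of Olig2 (19.2% of the P5 level), Sox11 (20.1%), and Neurog2 (23.7%).

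Progenitor and cell cycle genes also differed between fractions and stages, and not every member went the same way. Insm1 was higher in Cd73PC at all 3 stages, and Neurod4 was higher in Cd73NC at P5 than at P2. The summed FPKM of Mki67, Top2a, Ccna2, Ccnd1, and Fgf15 was 1820 at E15 and 1690 at E18. In Cd73NC it was 1538, 333, and 52.5 at P2, P5, and P8, and in Cd73PC it was 388, 103, and 11.5. All 5 markers were lower in Cd73PC at each stage, the sum being 25.2%, 30.9%, and 21.9% of that in Cd73NC, and none was at 0. Müller glia markers (Rlbp1, Glul, Apoe, Slc1a3, and Aqp4) had a sum in Cd73PC of 59.9%, 29.5%, and 28.7% of that in Cd73NC, with 3, 4, and 5 of the 5 lower. The part of progenitor and glial cells in the levels of the members was not tested. The 6 ganglion cell markers had a summed FPKM of 17.6, 28.5, and 296 in Cd73NC and of 5.58, 7.05, and 31.7 in Cd73PC. Isl1, which bipolar cells also express, made up most of this at P8, with 294 and 29.6 FPKM in the 2 fractions. Pou4f1, Pou4f2, Sncg, and Nefl were at or below 0.488 FPKM in all 4 libraries of P5 and P8, with Sncg at 0 in P5 Cd73NC and Pou4f2 at 0 in P8 Cd73PC, and Rbpms was between 0.970 and 1.58.

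**Figure D4:**
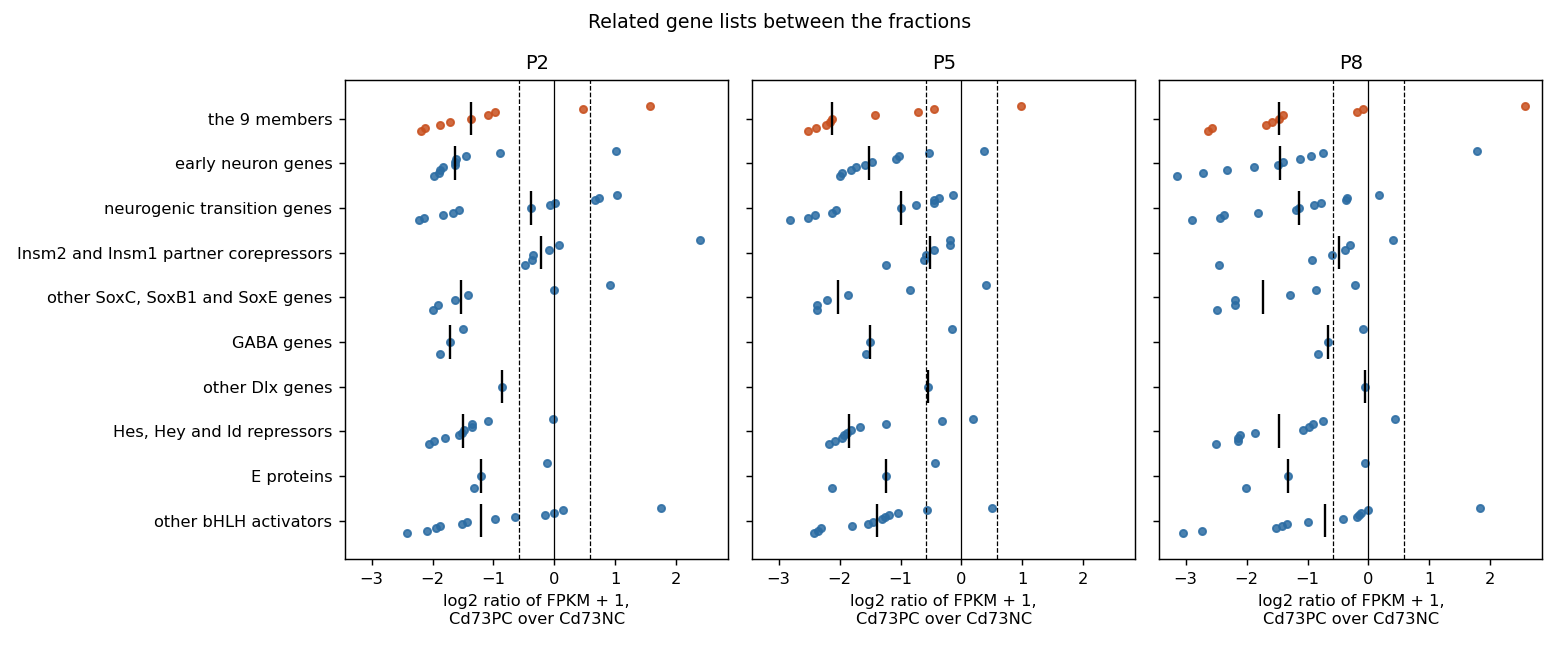
Log2 ratio of FPKM + 1, Cd73PC over Cd73NC, at P2, P5, and P8 for the genes of 9 related lists that reached an FPKM of 1 in at least 1 library (blue points) and for the 9 members (orange points), with the median of each list as a black bar. Dashed lines mark 1.5-fold. Most list genes lie left of the lower line. At P2, 7 stand right of the upper line: Neurod1, Insm2, Dpysl3, Srrm4, Sox12, Myt1, and Btg2.

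The other genes of these pathways were taken from 9 lists of 71 genes in all, of which 62 reached an FPKM of 1 in at least 1 library. Of these, 41, 45, and 44 were lower in Cd73PC at the 3 ages, and 7, 0, and 2 were higher. The shares of all genes past the threshold are those given for the members.

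Of 15 other proneural and related bHLH genes, 12 were expressed, and 8, 10, and 6 of them were lower in Cd73PC at P2, P5, and P8. Neurod1 was the only one higher, at P2 and P8. Nhlh2, Bhlhe22, Atoh8, and Neurod2 were lower in Cd73PC at all 3 stages. Nhlh2, a bHLH factor of young neurons, was at 42.7, 25.1, and 3.58 FPKM in Cd73NC and at 10.3, 4.27, and 0.712 FPKM in Cd73PC. Bhlhe22 was at 20.1, 23.1, and 40.1 FPKM in Cd73NC, unlike the decline of Nhlh2. Bhlhe23 also had its highest level in Cd73NC at P8, at 0, 18.1, and 134 FPKM by stage. Atoh7, which is needed for ganglion cells, was at 564 FPKM at E15 and 143 at E18.

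The partners of bHLH activators, the E proteins, were lower in Cd73PC with 1 exception. The E proteins Tcf3 and Tcf4 were lower at all 3 stages, Tcf4 at 57.4, 79.0, and 50.3 FPKM in Cd73NC and at 22.5, 17.3, and 11.7 FPKM in Cd73PC. Tcf12 was within the threshold at each stage. Of 12 Hes, Hey, and Id genes, 10 were expressed, and 9, 8, and 9 of them were lower in Cd73PC, with none higher. The highest of these were Hes5, Id3, Id2, and Id1. Hes5, a Notch target, was at 108, 81.8, and 30.8 FPKM in Cd73NC and at 25.2, 17.3, and 7.70 FPKM in Cd73PC. Hes6 thus lay on the same side as Hes5 at every stage.

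Among the genes related to Dlx1 and Dlx2, only Dlx3 of the 4 other Dlx genes reached an FPKM of 1, and it was lower in Cd73PC at P2. Of 3 genes of GABA synthesis and transport, 3, 2, and 2 were lower in Cd73PC at P2, P5, and P8. Slc32a1, the vesicular GABA transporter, was at 16.0, 4.21, and 1.21 FPKM in Cd73NC and at 3.62, 0.752, and 0.401 FPKM in Cd73PC. Gad2, a GABA synthesizing enzyme, was at 11.9, 4.28, and 1.54 FPKM in Cd73NC and at 2.92, 0.856, and 0.436 FPKM in Cd73PC. Both were above Dlx1 and Dlx2 in each of these libraries.

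Of 7 other Sox genes, 6 were expressed, and 4, 5, and 5 were lower in Cd73PC at P2, P5, and P8. Sox8, Sox2, Sox9, and Sox3, which are expressed in progenitors or glia, were lower at all 3 stages. Sox12, the remaining SoxC gene, differed from Sox4 and Sox11. It was at 22.4, 30.7, and 34.0 FPKM in Cd73NC and at 43.2, 40.9, and 29.0 FPKM in Cd73PC, so it was higher in Cd73PC past the threshold at P2 and within it at P5 and P8.

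The corepressors that work with Insm1 did not share its pattern. Of Insm2 and the 5 corepressor genes, 1 was higher at P2 (Insm2), none was higher at P5 or P8, and 0, 3, and 3 were lower. Rcor2, a subunit of a histone demethylase complex, was at 82.9, 103, and 73.3 FPKM in Cd73NC and at 64.3, 43.4, and 12.6 FPKM in Cd73PC. Kdm1a, the demethylase, was at 68.8, 80.7, and 60.4 FPKM in Cd73NC and at 72.3, 52.6, and 39.6 FPKM in Cd73PC. Insm1 was therefore highest relative to Rcor2 in P8 Cd73PC, where it stood at 144 against 12.6 FPKM.

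Of 11 neurogenic transition genes, 3 were higher (Btg2, Srrm4, and Myt1) and 5 lower in Cd73PC at P2, and 7 and 8 were lower at P5 and P8 with none higher. The Notch ligands Dll1, Dll3, and Dll4 and the growth arrest gene Gadd45g were lower at all 3 stages. Dll1 was at 46.4, 32.3, and 10.2 FPKM in Cd73NC and at 9.15, 4.78, and 2.17 FPKM in Cd73PC. Srrm4, a splicing regulator of neurons, was at 18.6 FPKM in Cd73NC and 39.0 in Cd73PC at P2, and then at 48.4 against 43.8 at P5. St18, a relative of Myt1, was at 34.5 FPKM in Cd73NC and 3.79 in Cd73PC at P8.

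Of 10 early neuron genes, 9, 8, and 9 were lower in Cd73PC at P2, P5, and P8. Stmn1, Tubb3, Gap43, and Stmn2 were lower at all 3 stages. Tubb3, a neuronal tubulin, was at 1109 FPKM at E15 and 560 at E18, at 358, 268, and 166 FPKM in Cd73NC, and at 95.0, 75.8, and 44.5 FPKM in Cd73PC. Its decline in Cd73NC was smaller than that of Sox11 and larger than that of Sox4. Dpysl3 was the only one of the list higher in Cd73PC, at P2 and P8.

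Likeness in course was measured as the root mean square difference of log2(FPKM + 1), each gene centred on its own mean, over the 8 libraries and among 10859 genes with an FPKM of at least 5 in at least 1 library. These points share their libraries, and the values are a description. The smallest difference was that of Insm1 and Rtkn2, 0.13, where the median over all genes was 1.04 for Insm1. Rtkn2 was at 61.2, 53.4, and 43.1 FPKM in Cd73PC and at 18.2, 24.3, and 6.78 FPKM in Cd73NC. Dlx1 and Dlx2 were each nearest to the other, at 0.15. Neurog2 was nearest to Rbfox2 (0.21), Sox11 (0.21), and Elavl3 (0.28), and Sox11 was nearest to Neurog2, Elavl3, and Rbfox2.

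The other members had neighbors of several kinds. Sox4 was nearest to Cp (0.17), Tle3 (0.18), and Cyp1b1 (0.18), and Hes6 to Gli3 (0.18), Sox3 (0.22), and Tbx3 (0.23). Olig2 was nearest to Heyl (0.23), Hmx1 (0.24), and Tgif2 (0.24). Neurod4 had the least close neighbor of the members, Cd9 at 0.49, followed by Fos (0.52) and Cbr3 (0.55). Insm1 was followed by AI429214 (0.23) and 1110028C15Rik (0.26), Dlx1 by Fndc3c1 (0.29) and Shb (0.30), and Dlx2 by Shb (0.27) and Igf2bp1 (0.27).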

How the data were processed

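RNA was sequenced from 8 mouse retina samples, 1 library per condition. The authors synthesized cDNA with random primers, sequenced short single-end reads on an Illumina GA sequencer, aligned them to NCBI37/mm9 with TopHat2 2.0.8b, and estimated expression with Cufflinks 2.1.1. The tables they deposited give the FPKM of 23021 rows with confidence bounds. Absolute depth is not given in these tables, so no counting interval was computed.

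Between 4 and 10 rows per library had a failed estimate and were taken as missing. After 797 small RNA rows were left out and rows of a symbol were summed, 21827 genes remained, and 20 with a failed estimate were dropped. Log2 ratios and calls were taken on FPKM + 1, which understates the change of low genes, with a threshold of 1.5-fold. The folds and percentages printed for single genes are ratios of FPKM as deposited, with nothing added, and are larger for low genes. Differences at 1 stage were not tested. The fraction effect was tested over the 3 sorted pairs with limma 3.58.1 (moderated, with a mean-variance trend), with stage as a block, since both fractions of a stage were sorted from the retinas of that stage. The range of a fold within libraries was taken from the ratios of the bounds. Groups followed the sample titles. Python 3.11.15, numpy 2.4.6, pandas 2.3.3, and matplotlib 3.10.9 were used, and the code was tested on simulated data.

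All 9 members were named. From each list of related genes, up to 4 were named that passed 1.5-fold in the same direction at all 3 stages and had the highest mean FPKM. Relatives and partners of members were named besides, and the 3 nearest genes of each member. Bhlhe23, Atoh7, St18, Srrm4, Btg2, Myt1, and Dpysl3 fall outside this rule and were chosen after they had been seen. The members and lists were chosen with earlier results of these data known. Alternatives were 2-fold, a pseudocount of 0.1, upper-quartile scaling, quantile normalization, bounds that do not overlap, and no filter on low values. Some list and marker genes are not reported here and were left out of the counts and sums.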

Additional observations from a re-analysis of the deposited data

Results flagged for a closer look

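Neurod4, the bHLH factor of bipolar and amacrine cells, went opposite ways in the sorted fractions from P2 to P5. The log2 ratio of FPKM + 1, P5 over P2, was 1.44 in Cd73NC and -1.19 in Cd73PC. With 1 library per condition the difference was not tested. No group had the 4 samples needed to look for a sample that stands apart.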

How the results depend on the processing

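No difference of a member between the fractions that was past the threshold at P2, P5, or P8 was reversed. For members over time and for the lists, only counts were recomputed. The log2 ratio of Dlx1 at P8, within the threshold, was -0.09 with FPKM as deposited and 0.11 with quantile normalization. With a 2-fold threshold, 0 members were higher in Cd73PC over Cd73NC at P5 (1 at 1.5-fold), against 685 of the 13411 genes tested. From E15 to E18, 0 members were higher at 2-fold (2 at 1.5-fold), against 341 of all genes. From P2 to P5, 3 members were lower in Cd73PC and 1 in Cd73NC at 2-fold (7 and 6 at 1.5-fold), against 548 and 825 of all genes. From P5 to P8, 5 were lower in Cd73NC at 2-fold (8 at 1.5-fold), against 619 of all genes. In P2 Cd73NC against E18, 1 member was lower with a pseudocount of 0.1 and 1 with upper-quartile scaling, where 0 were lower otherwise. Of all genes, 2485 and 1822 were lower with these 2 settings. With a pseudocount of 0.1 the log2 ratio between fractions was -1.50 for Dlx2 at P5, -2.36 for Olig2 at P8, and -2.27 for Sox11 at P8, and the other 24 of 27 ratios moved by less than 1.5-fold. With quantile normalization the median log2 ratio of all genes, Cd73PC over Cd73NC, moved from -0.17 to 0.00 at P5 and from -0.22 to 0.02 at P8, and no count of members moved by more than 1.5 times. For the lists, 6 of 54 counts moved with 2-fold, 3 with a pseudocount of 0.1, 3 with quantile normalization, and 2 with upper-quartile scaling. Without a filter on low values all 20 shares of genes past the threshold were smaller, since more genes were counted. The test of the fractions with stage as a replicate block was chosen after seeing the data. With it 1 member was higher in Cd73PC and 5 lower, against 8.48% and 18.6% of all genes. Without the replicate block 0 and 1 members were. Shares of all genes were not computed for the alternatives to this test. Leaving out 1 stage at a time gave 0 to 1 members higher and 0 to 6 lower, with the lowest counts without the P5 libraries. With a pseudocount of 0.1 the block gave 6 lower, Dlx2 being added at an adjusted p of 0.046 (limma). No replicate of a single condition could be left out. Depth limits Dlx1 and Dlx2 after P2, where FPKM was near or below 1.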
